A study of Mus musculus with 9 samples.

Results

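Platelet factor 4 (PF4, also named Cxcl4) added to the neurotoxin MPTP was compared with MPTP alone in mouse brain tissue labelled as midbrain, using the 3 MPTP+PF4 and 3 MPTP libraries, 6 of the 9 RNA libraries sequenced. All animals were C57BL/6 mice with 3 mice in each group, per the series design, and no genotype other than the strain is given. The MPTP group received MPTP intraperitoneally for 7 days, and the MPTP+PF4 group received the same course plus PF4 intravenously every 3 days throughout; both compared groups therefore carry the toxin. The 3 other libraries came from mice given saline and are printed for reference. The sources used here do not give sex, age or whether MPTP mice received an intravenous vehicle, and the sampling protocol speaks of collection in triplicate, so the spread between libraries may be partly technical if triplicates shared an animal.

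MPTP is converted in the brain to a metabolite that enters dopaminergic neurons through the dopamine transporter and inhibits mitochondrial respiration. PF4 is a chemokine stored in platelet granules; it was injected as protein, so the Pf4 transcript does not report the dose. Il33 is an alarmin cytokine held in the nucleus of oligodendrocytes and astrocytes. Motile cilia, carried in the brain by ependymal cells that line the ventricles, move by axonemal dynein arms that are regulated by radial spokes and the central pair of microtubules. The Zic proteins are zinc-finger transcription factors of the dorsal and medial neural tube that remain expressed in several adult brain regions.

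The 6 libraries held 32216850 to 35017006 counts, with 16303 to 16889 genes at 10 counts or more and 9.14% to 14.2% of counts from mitochondrially encoded genes. Levels are in CPM, counts scaled to a common library size with TMM factors. In these libraries 3 counts, taken as the floor of detection, equal 0.0857 to 0.0931 CPM. The midbrain label was checked against En1, a midbrain transcription factor, and Slc6a3, the dopamine transporter. En1 lay at 0.0550, 0.109 and 0.183 CPM in MPTP 1 to 3 and at 0, 3.78 and 0 CPM in MPTP+PF4 1 to 3. Slc6a3 lay at 0.0550, 0.958 and 0.122 CPM in MPTP and at 0.338, 102 and 0.402 CPM in MPTP+PF4. MPTP+PF4 2 was the 1 library of the 6 in which both midbrain markers passed 1 CPM. In the other 5 both lay under 1 CPM, whereas Ppp1r1b, a phosphatase inhibitor of striatal projection neurons, lay at 183 to 1920 CPM, so the markers of these 5 libraries go against the midbrain label. MPTP+PF4 2 also stood apart in other regional transcripts given below, and values without it are given beside many of the results. In Control 1 to 3, Slc6a3 lay at 0.393, 574 and 526 CPM and En1 at 0, 7.23 and 13.7 CPM. Ppp1r1b lay at 944, 31.3 and 30.7 CPM there. Control 2 and 3 thus differed from every MPTP library in regional markers. The part of region in any difference between controls and MPTP was not tested. In a bulk sample, fewer cells of a type and less RNA per cell cannot be told apart.

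No gene passed an adjusted p under 0.05 in the edgeR quasi-likelihood test, which is 0% of the 17285 genes tested, with a smallest adjusted p of 1 after Benjamini-Hochberg adjustment. An unadjusted p under 0.05 was found for 347 genes (2.01%), 112 of them higher (0.648%) and 235 lower (1.36%) with PF4. DESeq2 called 16 of 17202 genes (0.093%), 3 higher (0.0174%) and 13 lower (0.0756%). Limma voom with sample weights called 13 (0.0752%), 1 higher (0.00579%) and 12 lower (0.0694%), and 6 genes were called by both: Il33, Dnah10, Lrrc23, Slc14a2, Fam205a4 and Odf3b. With the replicate number as a block DESeq2 called 20, which kept 15 of the 16. Voom with the block called 5, among them AC154187.2, Zic4, Zic5 and Eomes but none of the 6 shared genes. Without MPTP 1 DESeq2 called 6, 5 higher and 1 lower, so the excess on the lower side was not seen in that fit. These kept 4 of the 16, namely Il33, Dnah10, AC154187.2 and the locus without a known gene. Without MPTP+PF4 2 DESeq2 called 35, 4 higher and 31 lower, which kept 13 of the 16. The 16 were Il33, AC154187.2 and 1 locus without a known gene on the higher side, and on the lower side Dnah10, Dnah9, Lrrc23, Dnaaf3, Trp73, Odf3b, Zic1, Zic2, Zic4, Zic5, Eomes, Slc14a2 and Fam205a4. All 3 MPTP+PF4 libraries lay outside the range of the 3 MPTP libraries for 1230 genes (7.12%), 526 above (3.04%) and 704 below (4.07%). The authors' deposited table marks 30 genes as up (0.205%) and 176 as down (1.2%), and 13 of the 16 DESeq2 calls are among these. Its column header names DESeq2 with cut-offs on p-value and fold change. These marks come from the same libraries and are not independent of the calls made here. Il33 is marked as neither up nor down. Since edgeR called none, the directions below are given as levels per library.

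Il33 gave the smallest p on the higher side. Its level was 61.4, 64.1 and 56.3 CPM in MPTP 1 to 3, and 104, 101 and 127 CPM in MPTP+PF4 1 to 3, or 60.6 ± 3.95 against 111 ± 14.0 CPM (SD, n = 3 each). Every MPTP+PF4 library lay above every MPTP library. The controls lay at 119, 120 and 132 CPM, so that MPTP+PF4 1 and 2 were between MPTP and control and MPTP+PF4 3 within the control range. The log2 fold change was 0.87 (SE 0.148, edgeR adjusted p 1, DESeq2 adjusted p 0.000148), with 0.93 when MPTP+PF4 2 was left out. An exact permutation test (two-sided) gave p = 0.1, the smallest that 3 libraries against 3 allow. Groups that do not overlap must give this p, so it adds nothing to the lack of overlap. The gene spans chr19:29925114-29960718 on the plus strand in GRCm38 and was covered by 1850 to 3788 counts a library.

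Among the receptor and signalling genes around Il33, Il1rl1 and Il1a had larger log2 fold changes than Il33 at far lower levels. Of the 11 tested members of this list of 12, 8 were above 0 and 3 below. The median log2 fold change was 0.29 against 0.016 for all genes tested. The 3 members above the MPTP range, where 3.04% of all genes lay, were Il33 itself, Il1a and Il1r1. Il1rl1, the Il33 receptor subunit ST2, lay at 0.385, 0 and 0.0609 CPM in MPTP and 0.400, 0.172 and 0.502 CPM in MPTP+PF4, close to the floor and overlapping (log2 fold change 1.23, SE 1.09). Il1a, another cytokine of the IL-1 family, lay at 0.412, 0.602 and 0.639 CPM in MPTP and at 1.14, 0.974 and 1.31 CPM in MPTP+PF4, so that the groups did not overlap (log2 fold change 1.04, unadjusted edgeR p 0.0312). Il1r1, the receptor of Il1a, was at 3.16 to 3.78 CPM in MPTP and 4.18 to 4.55 CPM in MPTP+PF4, and Il1rap, the co-receptor shared with Il33, at 34.8 to 60.7 CPM against 52.2 to 70.4 CPM with overlapping groups. Myd88, the adaptor of both receptors, had a log2 fold change of −0.09.

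**Figure D1:**
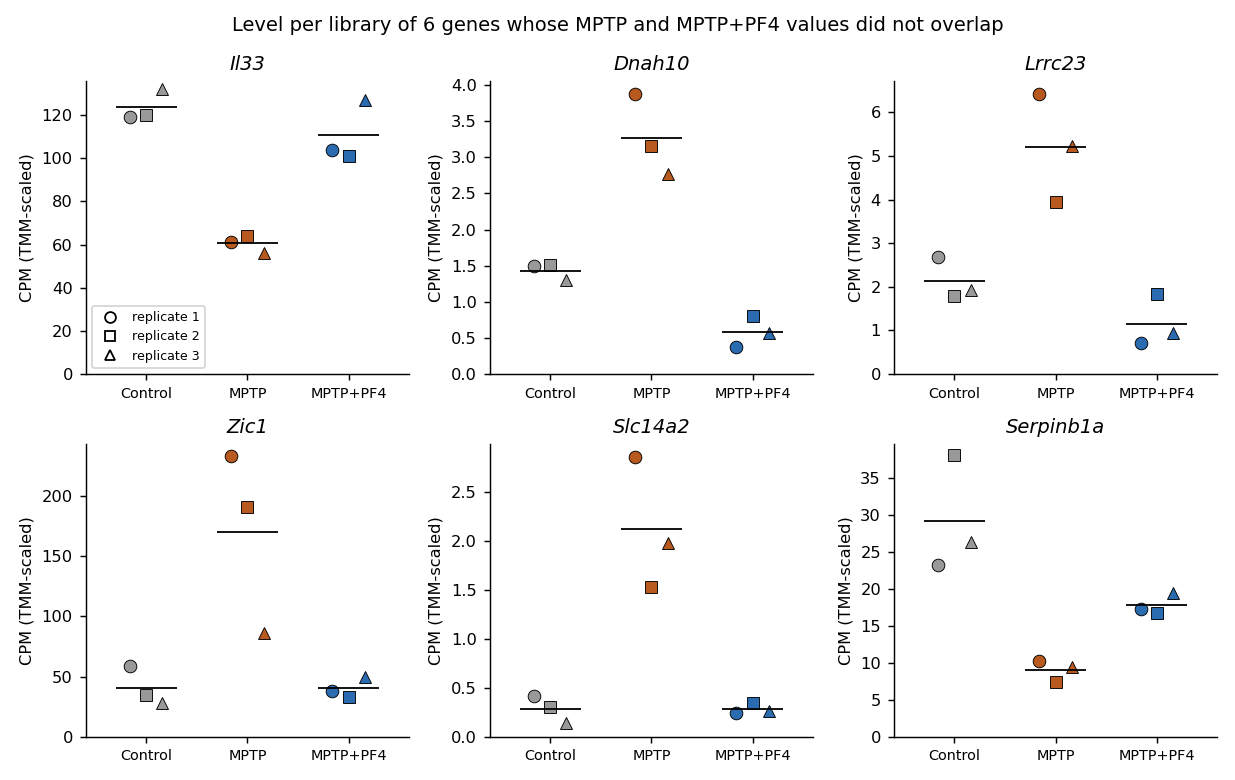
Level in CPM (TMM-scaled, linear axis from 0) of 6 genes in each control, MPTP and MPTP+PF4 library; symbols mark the replicate number and horizontal lines the mean of 3 libraries. Il33 and Serpinb1a lie higher, and Dnah10, Lrrc23, Zic1 and Slc14a2 lower, in all 3 MPTP+PF4 libraries than in any MPTP library.

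The genes of motile cilia were lower with PF4 in most members. Over the 5 lists of axonemal dynein arms, radial spokes and central pair, dynein assembly factors, ciliogenesis regulators and ependymal cell genes, 97 genes were tested, 90 had a log2 fold change below 0 (46.6% of all genes did) and 54 (55.7%) lay below the MPTP range in all 3 MPTP+PF4 libraries, against 4.07% of all genes tested. None lay above it, 36 had an unadjusted edgeR p under 0.05 on the lower side against 1.36% of all genes, and the authors' deposited table marks 40 as down against 1.2% of its genes and 0 as up. Some members passed the filter on low counts through the MPTP libraries, so their place below the MPTP range is not independent of being high there. Cfap53, for example, had 41, 17 and 33 counts in MPTP and 7, 4 and 9 in MPTP+PF4. Its controls had 7, 9 and 8 counts. Such members were not counted apart. The median log2 fold change of the 97 genes was −1.07, which was −1.27 without MPTP+PF4 2 and −0.87 without MPTP 1. The summed level of these genes was 916, 672 and 694 CPM in MPTP 1 to 3, 506, 548 and 561 CPM in MPTP+PF4 1 to 3, and 618, 529 and 462 CPM in the controls. Within MPTP, 72 of the 97 were highest in library 1, and within MPTP+PF4, 50 were highest in library 2. For 87 of the 97 genes the control median also lay below the MPTP median, with the regional difference of Control 2 and 3 given above.

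Because Foxj1 and RFX factors are the known regulators of these genes, and RFX proteins bind the X-box, promoter windows from RefSeq (GRCm38.p6) are shown for 4 genes whose groups did not overlap, with searched motifs in capitals. Each window runs from 250 bases before to 50 bases after the annotated start, 5′ to 3′ on the gene's strand. The X-box was searched as GTNNCC followed by NNN and GNAAC, its half-site as GTTGCC and the forkhead motif as GTAAACA, all on both strands; the letters of an X-box can contain a half-site.
Dnah10 promoter, chr5:124724835-124725134, plus strand: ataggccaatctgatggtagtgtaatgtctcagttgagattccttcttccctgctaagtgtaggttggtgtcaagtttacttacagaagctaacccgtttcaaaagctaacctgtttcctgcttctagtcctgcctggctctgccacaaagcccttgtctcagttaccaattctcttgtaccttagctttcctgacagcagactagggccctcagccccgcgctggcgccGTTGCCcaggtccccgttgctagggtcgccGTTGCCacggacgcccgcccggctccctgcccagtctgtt
Lrrc23 promoter, chr6:124779678-124779977, minus strand: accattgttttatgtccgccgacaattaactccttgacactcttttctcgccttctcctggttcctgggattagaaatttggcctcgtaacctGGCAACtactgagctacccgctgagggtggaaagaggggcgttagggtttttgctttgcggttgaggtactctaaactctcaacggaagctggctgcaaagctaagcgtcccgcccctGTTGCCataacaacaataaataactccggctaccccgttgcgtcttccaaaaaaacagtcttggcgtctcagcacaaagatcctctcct
Enkur promoter, chr2:21205316-21205615, minus strand: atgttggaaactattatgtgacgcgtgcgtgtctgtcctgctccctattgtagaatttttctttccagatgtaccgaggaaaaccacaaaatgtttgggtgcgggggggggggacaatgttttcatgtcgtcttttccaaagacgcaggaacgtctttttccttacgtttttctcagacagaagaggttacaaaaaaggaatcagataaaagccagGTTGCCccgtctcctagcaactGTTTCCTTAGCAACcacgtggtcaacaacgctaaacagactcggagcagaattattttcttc
Zmynd10 promoter, chr9:107547054-107547353, plus strand: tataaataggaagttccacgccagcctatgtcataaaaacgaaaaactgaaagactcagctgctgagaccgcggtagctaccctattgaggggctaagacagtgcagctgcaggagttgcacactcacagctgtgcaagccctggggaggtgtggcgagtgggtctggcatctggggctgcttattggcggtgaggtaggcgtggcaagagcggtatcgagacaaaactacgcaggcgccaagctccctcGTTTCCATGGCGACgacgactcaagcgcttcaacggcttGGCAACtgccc
The Dnah10 window holds a half-site at −20 and again at 11 from the start, and the Lrrc23 window holds GGCAAC, the half-site on the opposite strand, at −157 and GTTGCC at −39. Enkur holds the X-box match GTTTCCTTAGCAAC at −12 and a half-site at −34, and Zmynd10 an X-box match at 1, printed as GTTTCCATGGCGAC and read on the opposite strand, with a half-site at 40. Of the 97 genes, 81 had 97 windows, of which 16 (16.5%) held an X-box, 40 (41.2%) a half-site and 7 (7.22%) a forkhead match. Over all 32851 windows the shares were 2.17%, 12.5% and 3.65%. Among the 57 windows of genes whose groups did not overlap, 11 (19.3%) held an X-box and 20 (35.1%) a half-site. These are matches of letters in a window and say nothing on which protein was bound in these mice.

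Outer and inner dynein arms carry the motor proteins of the cilium. Of 18 tested dynein arm genes 17 were below 0 and the median was −0.98. Of the 18, 12 lay below the MPTP range, against 4.07% of all genes. Dnah10, an inner arm heavy chain (chr5:124725085-124834308, plus strand), lay at 3.88, 3.15 and 2.77 CPM in MPTP 1 to 3 and 0.369, 0.802 and 0.569 CPM in MPTP+PF4 1 to 3, or 3.26 ± 0.562 against 0.580 ± 0.217 CPM (SD, n = 3 each). The nearest libraries of the 2 groups differed by more than 3-fold, and the controls lay between them at 1.49, 1.51 and 1.30 CPM. Its log2 fold change was −2.48 (SE 0.372; edgeR adjusted p 1, DESeq2 adjusted p 1.98e-06), based on 91 to 141 counts a library in MPTP and 12 to 28 in MPTP+PF4. Dnah9, an outer arm heavy chain, lay at 9.84, 5.55 and 5.05 CPM in MPTP and 2.06, 2.38 and 1.34 CPM in MPTP+PF4 (log2 fold change −1.82, DESeq2 adjusted p 0.00924). Dnah6, an inner arm chain, lay at 12.9, 4.82 and 6.48 CPM against 0.615, 1.75 and 1.54 CPM, again without overlap. Dnah7c was the exception above 0, at 3.89 to 4.34 CPM in MPTP and 3.70 to 6.27 CPM in MPTP+PF4; Dnah7a, Dnah7b and Dnah7c are near-identical copies whose reads the counting could split, so their values are uncertain.

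Radial spokes, the central pair and the ruler that spaces the arms transmit the signal to the motors. Of 43 tested genes of this list 42 were below 0 and the median was −1.19. Of the 43, 28 lay below the MPTP range, against 4.07% of all genes. Lrrc23, a radial spoke protein (chr6:124769863-124779727, minus strand), lay at 6.43, 3.94 and 5.23 CPM in MPTP and 0.707, 1.83 and 0.937 CPM in MPTP+PF4, or 5.20 ± 1.25 against 1.16 ± 0.596 CPM (SD, n = 3 each). The groups did not overlap, MPTP+PF4 2 was the highest of its group, and the controls at 1.78 to 2.69 CPM lay below every MPTP library. The log2 fold change was −2.16 (SE 0.419; edgeR adjusted p 1, DESeq2 adjusted p 0.00134) and −2.66 without MPTP+PF4 2. Rsph1, a spoke head protein, lay at 14.4, 5.58 and 7.09 CPM in MPTP and 2.70, 3.44 and 3.18 CPM in MPTP+PF4. Cfap65, a central pair protein, was at 8.47, 4.71 and 4.90 CPM against 0.830, 1.20 and 1.17 CPM, and Enkur, whose X-box is printed above, at 8.27, 2.93 and 4.93 CPM against 1.57, 2.09 and 1.74 CPM. Spag6 alone was above 0 in this list, at 0.0821 to 0.770 CPM in MPTP and 0.459 to 0.738 CPM in MPTP+PF4.

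Dynein assembly factors, which fold the arms in the cytoplasm, were less uniform: 9 of 11 were below 0, and the median was −0.23. Of the 11, 3 lay below the MPTP range, against 4.07% of all genes. Dnaaf3 lay at 3.19, 1.56 and 1.77 CPM in MPTP and 0.676, 0.344 and 0.435 CPM in MPTP+PF4 (log2 fold change −2.15, DESeq2 adjusted p 0.0354), and Zmynd10 at 4.04, 2.57 and 3.53 CPM against 1.54, 0.974 and 1.91 CPM. Dyx1c1, which also acts outside motile cilia, overlapped at 2.33 to 3.93 CPM and 1.84 to 2.41 CPM.

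Among the transcription factors and other regulators that switch on multiciliation, 7 of 10 were below 0 and the median was −0.92. Of the 10, 2 lay below the MPTP range, against 4.07% of all genes. Trp73, a p53 family factor of multiciliated cells, lay at 3.96, 6.21 and 1.58 CPM in MPTP and 0.430, 0.459 and 0.435 CPM in MPTP+PF4 (log2 fold change −3.14, DESeq2 adjusted p 0.0149). Myb, an early factor of the same programme, lay at 3.13, 0.958 and 2.43 CPM against 0.400, 0.487 and 0.736 CPM, also without overlap. Foxj1, the master regulator of motile cilia, overlapped, with 22.0, 7.61 and 14.6 CPM in MPTP and 5.90, 8.60 and 4.99 CPM in MPTP+PF4, since MPTP 2 lay below MPTP+PF4 2. Rfx2 was at 2.52 to 5.22 CPM against 1.84 to 2.64 CPM, and Rfx3, expressed in neurons too, at 36.1 to 54.5 CPM against 40.3 to 79.4 CPM.

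The genes of the ependymal cell list, some of them also ciliary, were below 0 in 15 of 15. Of these, 9 lay below the MPTP range, against 4.07% of all genes, and the median was −1.94 (−1.42 without MPTP 1). Ccdc153 lay at 14.0, 5.23 and 11.0 CPM in MPTP and 0.891, 2.21 and 2.88 CPM in MPTP+PF4, and Tmem212 at 8.85, 2.44 and 4.35 CPM against 0.338, 0.630 and 1.17 CPM. Both defining markers were present in all 6 libraries and lower in each MPTP+PF4 library than in any MPTP library. Pifo, which acts at the ciliary base, lay at 4.07, 1.86 and 2.28 CPM against 0.430, 0.716 and 0.536 CPM. The list summed to 111 to 162 CPM in MPTP, 71.1 to 104 CPM in MPTP+PF4 and 119 to 227 CPM in the controls. A large part of each sum came from Tppp3, whose MPTP and MPTP+PF4 groups overlapped. Tppp3 lay at 42.8 to 68.0 CPM in MPTP, 40.5 to 70.6 CPM in MPTP+PF4 and 73.2 to 174 CPM in the controls. The sums therefore do not rank ependymal content. The part of ependymal content in the cilia values was not tested. Outside the lists, Odf3b, a sperm tail protein homologue, lay at 3.00, 1.83 and 2.22 CPM against 0.430, 0.831 and 0.268 CPM (log2 fold change −2.19, and −2.73 without MPTP+PF4 2). Nme9, a thioredoxin domain protein, lay at 1.48, 0.766 and 1.40 CPM against 0.123, 0.0860 and 0.167 CPM, the last near the floor. Nme9 had 4, 3 and 5 counts in MPTP+PF4 and passed the filter on low counts chiefly through the MPTP libraries. Its lower values are therefore not independent of its being high there.

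**Figure D2:**
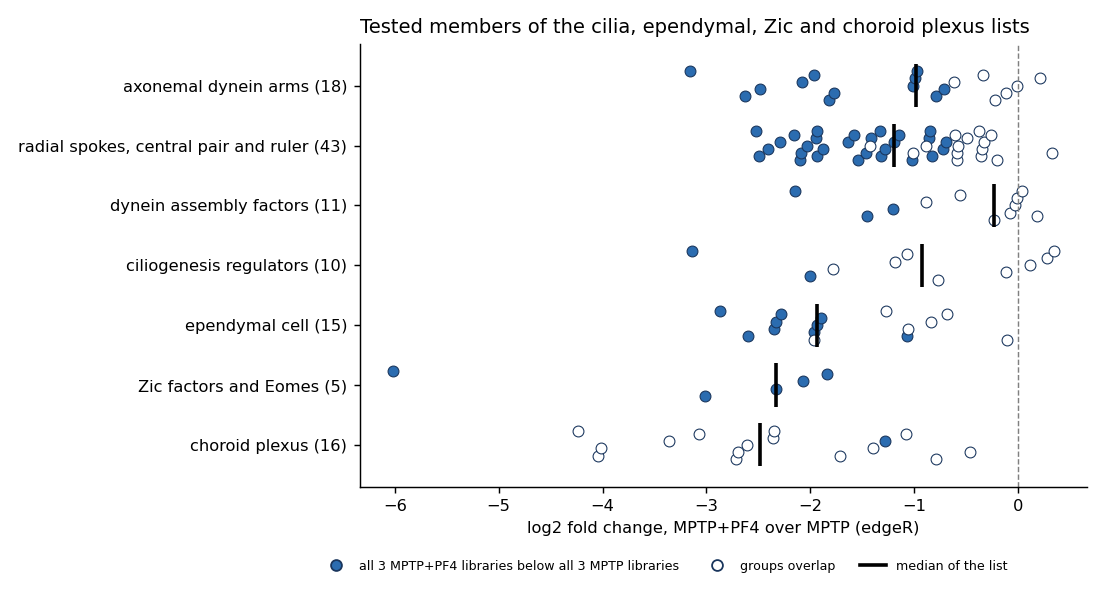
Log2 fold change of MPTP+PF4 over MPTP from edgeR for each tested member of 7 lists, 1 point a gene and the number of tested genes in parentheses; filled points are genes whose 3 MPTP+PF4 libraries lie below all 3 MPTP libraries and vertical bars are list medians. Filled points make up 12 of 18 dynein arm genes, 28 of 43 radial spoke genes, 5 of 5 Zic and Eomes genes and 1 of 16 choroid plexus genes.

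Choroid plexus transcripts were also below 0, in 16 of 16 with a median of −2.48, but the values followed 1 library. Only Clic6 lay below the MPTP range, where 4.07% of all genes lay. Ttr, the thyroid hormone carrier that choroid plexus makes in large amounts, lay at 2920, 32.7 and 62.7 CPM in MPTP 1 to 3 and 111, 47.7 and 27.6 CPM in MPTP+PF4 1 to 3. Slc4a5, a bicarbonate transporter of the same epithelium, lay at 18.1, 0.274 and 0.304 CPM against 0.584, 0.258 and 0.134 CPM. MPTP 1 held nearly all of the difference, and without it the list median was 0.04. With the replicate number as a block the median was −1.11. Folr1, a folate receptor of this epithelium, was present in every library, at 0.410 to 17.1 CPM in MPTP and 0.703 to 1.94 CPM in MPTP+PF4. The summed level of the list was 367 to 4720 CPM in MPTP, 458 to 516 CPM in MPTP+PF4 and 329 to 1940 CPM in the controls. MPTP 1 was also the library with the highest cilia sum, and whether ventricular tissue in it contributed to the cilia difference was not tested; the median of the 97 genes without that library was −0.87.

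The Zic factors described here and Eomes were lower with PF4. All 5 (Zic1, Zic2, Zic4, Zic5 and Eomes) lay below the MPTP range in all 3 MPTP+PF4 libraries and had an unadjusted edgeR p under 0.05, all were DESeq2 calls, but none passed voom without the replicate block (adjusted p 0.0623 to 0.412) or DESeq2 without MPTP 1 (adjusted p 0.0775 to 0.317), and the median log2 fold change was −2.33 (−2.22 without MPTP+PF4 2, −1.79 without MPTP 1). Zic1 (chr9:91358058-91365810, minus strand) lay at 233, 191 and 85.9 CPM in MPTP 1 to 3 and 38.3, 33.4 and 49.7 CPM in MPTP+PF4 1 to 3, or 170 ± 75.8 against 40.5 ± 8.36 CPM (SD, n = 3 each). The groups did not overlap, MPTP 3 was the lowest of its group, and the controls at 27.8 to 59.0 CPM spanned the range of MPTP+PF4. The log2 fold change was −2.07 (SE 0.408, edgeR adjusted p 1, DESeq2 adjusted p 0.00141). The exact permutation test (two-sided) gave p = 0.1, as it must for groups that do not overlap.

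Zic4, the neighbour of Zic1 (chr9:91362413-91389348, plus strand), lay at 23.8, 15.9 and 7.91 CPM in MPTP and 1.69, 0.946 and 3.28 CPM in MPTP+PF4. The 2 genes overlap by 3398 bases on opposite strands and the sources used here do not give the strand setting of the counting, so reads in the overlap could not be told apart. Zic2 lay at 58.2, 34.2 and 17.0 CPM against 9.96, 11.8 and 8.87 CPM, and its neighbour Zic5, whose gene body starts 9757 bases away, at 33.9, 14.4 and 7.91 CPM against 4.64, 3.15 and 3.38 CPM. In each of these MPTP 1 was the highest and MPTP 3 the lowest of its group. On the length-scaled FPKM of the authors' deposited table, Zic1 had the highest mean level of the 5 with 30.8 FPKM in MPTP and 6.80 FPKM in MPTP+PF4, followed by Zic2 with 15.0 and 3.94 FPKM; Zic4 and Zic5 had 4.51 and 3.94 FPKM in MPTP and did not differ beyond their spread.

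Eomes (Tbr2), a T-box factor of intermediate progenitors and of neurons of the olfactory bulb, had 387, 112 and 28 counts in MPTP 1 to 3 and 4, 3 and 0 counts in MPTP+PF4 1 to 3, or 527 against 7 in all. The corresponding levels were 10.6, 3.06 and 0.852 CPM against 0.123, 0.0860 and 0 CPM, and the controls lay at 0 to 0.168 CPM, near the floor. Eomes passed the filter on low counts through the MPTP libraries alone, so its test is not independent of its being high there, and its adjusted p was 0.000597 by DESeq2 but 0.412 by voom. Most of the MPTP counts came from library 1, and all 3 MPTP libraries lay above every other library.

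Genes of neurogenesis and proliferation pointed the same way less evenly. Of 15 tested members 14 were below 0 and 5 lay below the MPTP range, against 4.07% of all genes. The median was −0.48 (−0.19 without MPTP 1). Igfbpl1, expressed in migrating neuroblasts, lay at 15.1, 2.79 and 3.20 CPM in MPTP and 1.84, 0.487 and 1.17 CPM in MPTP+PF4. Dlx1 and Dlx2, homeobox factors of forebrain interneurons, lay at 65.3, 76.9 and 27.4 CPM against 19.4, 19.0 and 16.1 CPM and at 14.1, 15.3 and 7.91 CPM against 4.12, 3.87 and 4.52 CPM. Sox2, a factor of neural stem cells and astrocytes, lay at 55.4 to 67.4 CPM against 40.1 to 49.4 CPM. Mki67, a marker of dividing cells, overlapped at 1.53 to 4.26 CPM and 0.401 to 2.61 CPM.

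Of the remaining lower genes that DESeq2 called, Slc14a2, a urea transporter, lay at 2.86, 1.53 and 1.98 CPM in MPTP and 0.246, 0.344 and 0.268 CPM in MPTP+PF4, with the controls at 0.138 to 0.421 CPM. The groups were more than 4-fold apart at their nearest libraries (log2 fold change −2.87, SE 0.509, DESeq2 adjusted p 0.000878). Fam205a4, of a family with near-identical copies and therefore uncertain, lay at 4.43, 8.21 and 4.93 CPM against 0.553, 1.49 and 0.167 CPM (log2 fold change −2.97, and −4.00 without MPTP+PF4 2).

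Several genes of proteases and their inhibitors lay on the higher side. The protease inhibitor Serpinb1a lay at 10.3, 7.39 and 9.46 CPM in MPTP and 17.3, 16.7 and 19.5 CPM in MPTP+PF4 (log2 fold change 0.98, SE 0.225, unadjusted edgeR p 0.00187, DESeq2 adjusted p 0.105). Serpind1, heparin cofactor II, lay at 2.17, 1.01 and 1.67 CPM against 3.57, 4.04 and 4.38 CPM, and Plat, tissue plasminogen activator, at 32.3, 24.4 and 25.2 CPM against 41.2, 37.0 and 36.4 CPM. None of these groups overlapped, and of the 12 serpin and haemostasis genes tested 9 were above 0 and 4 lay above the MPTP range, against 3.04% of all genes. The list median was 0.24 and 0.02 without MPTP+PF4 2.

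Other genes above the MPTP range in all 3 MPTP+PF4 libraries were Pmp22, a myelin protein, at 33.9, 27.3 and 31.3 CPM in MPTP and 45.7, 47.8 and 44.1 CPM in MPTP+PF4, and Ttpa, the alpha-tocopherol transfer protein, at 5.55, 6.38 and 5.87 CPM against 10.5, 9.51 and 9.84 CPM. Fgf13, an intracellular regulator of sodium channels, lay at 71.5, 76.8 and 87.5 CPM against 115, 139 and 103 CPM. Cldn14, a tight junction protein, lay at 0.825, 0.547 and 1.00 CPM against 2.12, 1.40 and 2.41 CPM. Sgpp2, a sphingosine phosphate phosphatase, lay at 30.9 to 35.1 CPM against 42.6 to 53.2 CPM, and Pld1, a phospholipase D, at 11.5 to 13.1 CPM against 15.8 to 20.0 CPM. Tdgf1, a Nodal co-receptor, lay at 0.0550 to 0.335 CPM against 0.659 to 0.953 CPM, the lowest at the floor. AC154187.2, a gene on chromosome 17 that overlaps other genes and is therefore uncertain, had 0 counts in each MPTP library and 144, 31 and 20 counts in MPTP+PF4 1 to 3, at least 23.4-fold higher in mean level against the floor of 3 counts per library. Without MPTP+PF4 1 the bound was 9.13-fold (DESeq2 adjusted p 0.000262 and voom adjusted p 0.17, both with all libraries).

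Tsc22d3, the glucocorticoid-induced leucine zipper gene, lay at 61.7, 67.7 and 51.8 CPM in MPTP and 100, 87.0 and 89.6 CPM in MPTP+PF4 (log2 fold change 0.61, unadjusted edgeR p 0.00651). Of the 14 tested glucocorticoid response genes 12 were above 0 but 2 lay above the MPTP range, against 3.04% of all genes, and the median was 0.24. Fkbp5, a chaperone induced by the receptor, overlapped at 33.3 to 45.7 CPM and 35.4 to 54.8 CPM. Among 15 immediate early genes 13 were above 0 and 1, Fos, lay above the MPTP range, against 3.04% of all genes. Fos lay at 8.41, 5.86 and 8.49 CPM in MPTP and 13.3, 10.2 and 10.8 CPM in MPTP+PF4. Neurotrophic factors and receptors had a median of −0.03 over 14 genes (−0.22 without MPTP+PF4 2). The 15 clock genes had a median of 0.07 (0.25 without MPTP+PF4 2) and none lay outside the MPTP range.

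All 15 tested genes of cholesterol synthesis were above 0, where 53.4% of all genes were, with a median of 0.31. Of these, 4 lay above the MPTP range, against 3.04% of all genes. Hmgcs1, an early enzyme of the pathway, lay at 255, 231 and 165 CPM in MPTP and 283, 325 and 281 CPM in MPTP+PF4. Idi1, the isomerase that activates isoprenoid units, lay at 45.7, 43.8 and 31.1 CPM against 47.7, 64.2 and 56.8 CPM, and Msmo1, a sterol demethylation enzyme, at 86.5, 85.8 and 69.2 CPM against 120, 128 and 118 CPM. MPTP 3 was the lowest library for each of the 3. Cholesterol is made in the brain chiefly by astrocytes and oligodendrocytes, and the mature oligodendrocyte list was above 0 in 15 of 15 with a median of 0.32 (0.58 without MPTP 1).

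Of the 15 oligodendrocyte genes 1, Mog, lay above the MPTP range, where 3.04% of all genes lay. Mog, a myelin surface protein, lay at 110, 57.6 and 68.8 CPM in MPTP and 143, 114 and 158 CPM in MPTP+PF4. Its controls lay at 168 to 213 CPM. The list summed to 6250 to 13400 CPM in MPTP and 10600 to 11700 CPM in MPTP+PF4. Precursor genes were above 0 in 6 of 12 and below in 6. The 1 member outside the MPTP range, where 7.12% of all genes lay, was Gpr17. This receptor of committed precursors lay at 66.7 to 85.1 CPM against 58.2 to 61.6 CPM. Among 14 astrocyte genes 12 were above 0, where 53.4% of all genes were, and 3 lay above the MPTP range, against 3.04% of all genes; the median was 0.24, and 0.06 without MPTP+PF4 2. Aldh1l1, a folate enzyme used as an astrocyte marker, lay at 34.1, 38.0 and 30.5 CPM against 55.5, 50.1 and 46.2 CPM, and S100b, a calcium-binding protein, at 72.3 to 103 CPM against 112 to 150 CPM. Reactive astrocyte genes had a median of −0.11, or −0.73 without MPTP+PF4 2. Because Il33 is made by both cell types, these values stand beside it; their part in the Il33 difference was not tested.

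Microglial identity genes were above 0 in 14 of 15 with a median of 0.42, and none lay outside the MPTP range. P2ry12, the purinergic receptor of resting microglia, lay at 36.7, 27.4 and 52.4 CPM in MPTP and 70.2, 35.8 and 85.4 CPM in MPTP+PF4, with MPTP+PF4 2 inside the MPTP range. Of 13 disease-associated microglial genes 10 were above 0 with a median of 0.24 (−0.04 without MPTP+PF4 2). Of the 13, 1, Axl, lay above the range, against 3.04% of all genes, at 43.7 to 49.4 CPM against 52.1 to 56.9 CPM. Of 17 inflammatory cytokines and chemokines 10 passed the filter on low counts and had a median of −0.04. Tnf, Il6 and Il1b lay at or near the floor in all 6 libraries, at 0 to 0.287 CPM, so a difference was not detectable at this depth. Nos2, the inducible nitric oxide synthase, lay at 0.575 to 0.852 CPM in MPTP and 0, 0.287 and 0.430 CPM in MPTP+PF4.

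Of the vascular lists, endothelial genes had a median of 0.19 and pericyte and smooth muscle genes 0.25 (0.08 without MPTP+PF4 2). Of 14 endothelial and 12 pericyte and smooth muscle genes tested, 1 each lay above the MPTP range, against 3.04% of all genes. Mfsd2a, the lipid transporter of the blood-brain barrier, lay at 23.1 to 24.3 CPM against 26.0 to 33.7 CPM, and Kcnj8, a potassium channel of pericytes, at 3.93 to 4.38 CPM against 5.01 to 6.05 CPM. Meningeal fibroblast genes had a median of 0.67, or 0.37 without MPTP+PF4 2. Haemoglobin transcripts, which blood left in the tissue carries, were higher in all 3 MPTP+PF4 libraries: Hbb-bs lay at 18.4, 16.1 and 19.6 CPM in MPTP and 140, 27.5 and 73.1 CPM in MPTP+PF4, and Alas2, the erythroid haem synthesis enzyme, at 0.742, 0.493 and 0.791 CPM against 4.92, 1.17 and 2.54 CPM. The globin genes are near-identical copies whose reads the counting could split. Haemoglobin took 0.00527% to 0.0386% of the counts, and 5 of 6 tested erythrocyte genes lay above the MPTP range, against 3.04% of all genes. The list summed to 151 to 284 CPM in MPTP, 248 to 611 CPM in MPTP+PF4 and 363 to 6760 CPM in the controls. Whether blood moved with any other difference was not tested.

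The transcript of Pf4 itself lay at 0.192, 0.328 and 0.335 CPM in MPTP and 0.154, 0.831 and 0.167 CPM in MPTP+PF4, with overlapping groups. Of 10 platelet genes 5 passed the filter on low counts, none lay outside the MPTP range, and Ppbp, another platelet granule chemokine, was at 0 to 0.201 CPM in the 6 libraries. Of the receptors and partners reported for PF4, Cxcr3, a chemokine receptor, lay at 0 to 0.122 CPM, at or near the floor, and Ccr1 at 0.0821 to 0.287 CPM. Lrp1, an endocytic receptor, lay at 226 to 271 CPM in MPTP against 181 to 277 CPM in MPTP+PF4. Thbd, thrombomodulin, whose cofactor activity PF4 is known to raise, lay above the MPTP range at 4.82 to 5.69 CPM against 7.01 to 8.77 CPM.

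**Figure D3:**
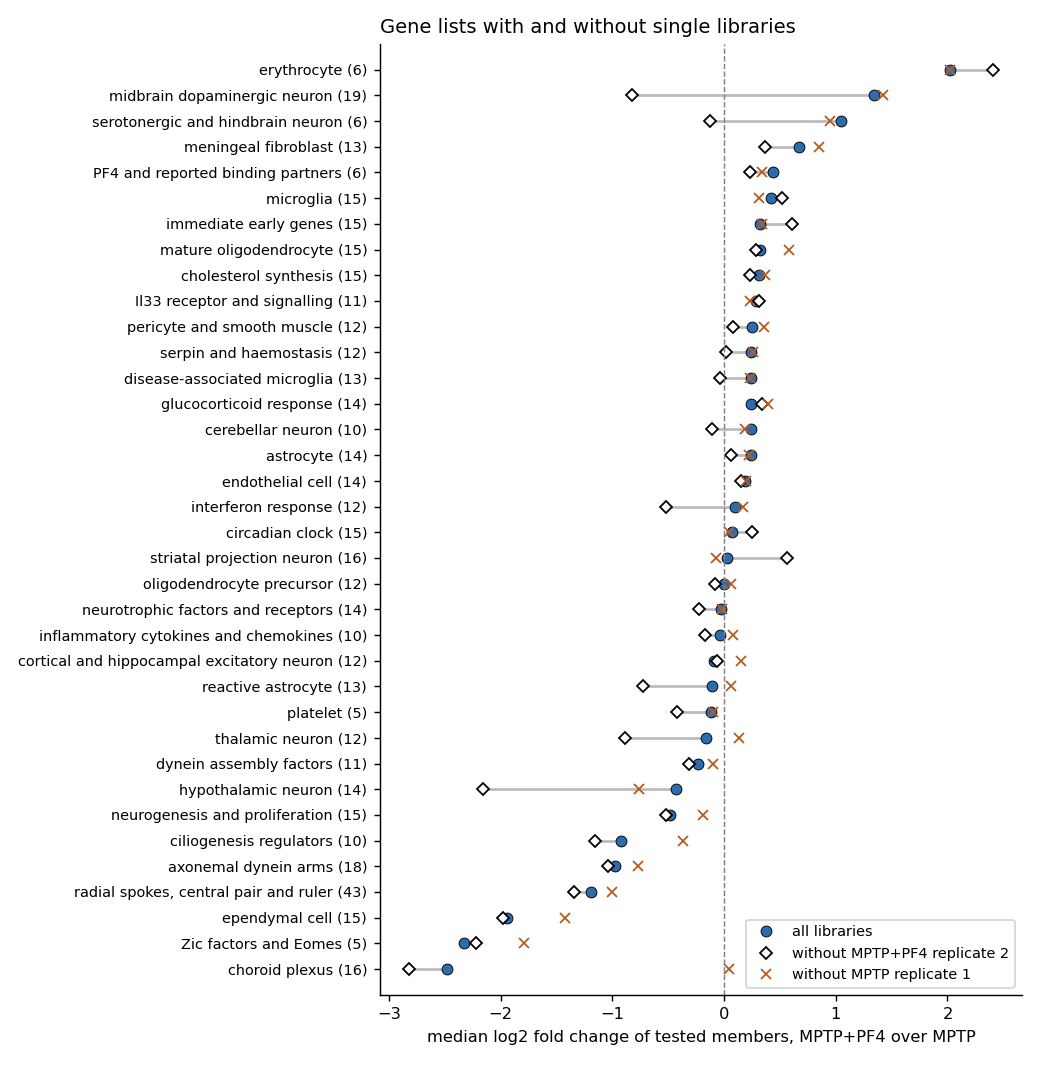
Median log2 fold change of MPTP+PF4 over MPTP for the tested members of 36 gene lists, with the number of members in parentheses; circles use all libraries, diamonds leave out MPTP+PF4 replicate 2 and crosses leave out MPTP replicate 1. The dopaminergic median moves from 1.34 to −0.82 without MPTP+PF4 2 and the choroid plexus median from −2.48 to 0.04 without MPTP 1, while the Zic and Eomes median stays between −2.33 and −1.79.

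The dopaminergic genes, on which MPTP acts, were above 0 in 19 of 19 tested with a median of 1.34, but the difference lay in MPTP+PF4 2. Th, the rate-limiting enzyme of dopamine synthesis, lay at 5.58, 18.1 and 8.31 CPM in MPTP 1 to 3 and 4.95, 51.7 and 7.10 CPM in MPTP+PF4 1 to 3. Foxa1 and Foxa2, forkhead factors of dopaminergic progenitors, lay at 17.1 and 3.07 CPM in MPTP+PF4 2, and at 0 in the other 5 libraries except for Foxa1 at 0.0609 CPM in MPTP 3. MPTP+PF4 1 and 3 thus lay inside or below the MPTP range for Th and at 0 for the Foxa genes. The log2 fold changes of Th and Slc6a3 were 1.00 and 6.47, and −0.82 and −0.05 without MPTP+PF4 2; the list median was then −0.82. Over the 6 libraries the exact permutation test (two-sided) gave p = 0.9 for Th and p = 0.5 for Slc6a3. Aldh1a1, the retinal dehydrogenase of ventral dopaminergic neurons, was the 1 member of 19 above the MPTP range, where 3.04% of all genes lay. It lay at 43.7, 42.0 and 57.5 CPM against 91.3, 201 and 69.6 CPM (log2 fold change 1.34, unadjusted edgeR p 0.0473, and 0.75 without MPTP+PF4 2).

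Other regional transcripts also differed between libraries of 1 group. Drd1 and Adora2a, receptors of striatal projection neurons, lay at 170, 44.5 and 318 CPM and at 137, 25.3 and 302 CPM in MPTP 1 to 3. In MPTP+PF4 1 to 3 they lay at 218, 7.74 and 398 CPM and at 220, 1.32 and 255 CPM. The lowest library of each group was number 2. Pmch and Hcrt, peptides of lateral hypothalamic neurons, lay at 491 and 62.8 CPM in MPTP+PF4 2, whereas the other 5 libraries held 0 to 3.56 CPM of either. Oxt, Avp and Trh, peptides of other hypothalamic neurons, lay at 29.3, 43.6 and 47.8 CPM in MPTP 2, and at 0 to 5.5 CPM in the other 5. Without MPTP+PF4 2 the list medians moved from 0.03 to 0.56 for striatal projection neurons, from −0.43 to −2.16 for hypothalamic, from −0.16 to −0.89 for thalamic and from 1.05 to −0.13 for serotonergic and hindbrain neurons. The cerebellar and the cortical and hippocampal medians were 0.24 and −0.09, and −0.11 and −0.06 without that library.

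Counted over all genes tested, MPTP+PF4 2 lay at least 1 log2 unit from the mean of the other two MPTP+PF4 libraries in 1589 genes, against 259 for MPTP+PF4 1 and 1034 for MPTP+PF4 3. For MPTP 1, 2 and 3 the counts were 412, 1152 and 681. On the second principal component of the 9 libraries (15.1% of the variance), MPTP 2 and MPTP+PF4 2 lay at −43.8 and −37.4, and the other 4 of the 6 between −0.669 and 22.0. The first component (60.9%) held Control 2 and 3 at 95 and 63.3, and the 6 libraries of the comparison between −55.9 and 19.2. Il33, Dnah10, Lrrc23, Zic1 and Slc14a2 did not overlap between the groups with MPTP+PF4 2 included. These genes were given for the comparison or chosen for this property, and leaving out a library cannot create an overlap.

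**Figure D4:**
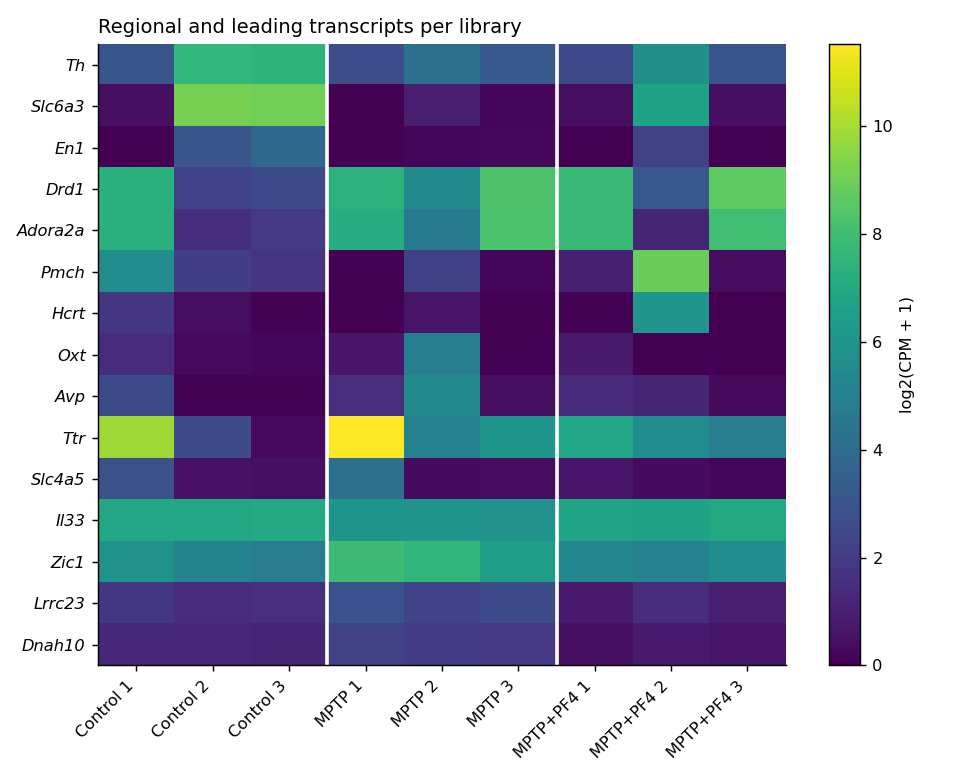
Level as log2(CPM + 1) (colour scale) of regional and leading transcripts (rows) in each of the 9 libraries (columns), grouped as control, MPTP and MPTP+PF4. MPTP+PF4 2 holds Slc6a3 at 102 CPM and Pmch at 491 CPM, MPTP 1 holds Ttr at 2920 CPM and MPTP 2 holds Avp at 43.6 CPM, whereas Il33 is lowest in the 3 MPTP libraries.

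MPTP+PF4 1 and 3 in turn stood together apart from all 7 other libraries, MPTP+PF4 2 included, in a set of genes found by their values and therefore described without a test. With a gap of at least 0.6 in log2(CPM + 1) between the nearest libraries, 24 of the 28991 genes searched did so. They were 15 known genes lower, 3 known genes higher and 6 loci without a known gene. Other pairs of libraries were not counted at this gap, so whether 24 is many for a pair was not tested. Ide, the insulin-degrading enzyme (chr19:37268743-37337852), lay at 46.0 and 48.6 CPM in MPTP+PF4 1 and 3, at 90.5 CPM in MPTP+PF4 2 and at 92.2 to 105 CPM in MPTP. Gbp4, an interferon-induced guanylate-binding protein (chr5:105115767-105139586), lay at 2.95 and 3.25 CPM, at 16.5 CPM and at 14.2 to 15.6 CPM in the same order. Igtp, an interferon-induced immunity GTPase, lay at 3.50 and 2.78 CPM in MPTP+PF4 1 and 3, at 14.4 CPM in MPTP+PF4 2 and at 9.25 to 14.0 CPM in MPTP.

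The neighbouring GTPase genes Tgtp1 and Tgtp2, near-identical copies and therefore uncertain, lay at 1.77 to 2.27 CPM in MPTP+PF4 1 and 3, whereas the other 4 of the 6 libraries held 10.5 to 19.1 CPM. Tap1, the peptide transporter of antigen presentation, lay at 1.87 and 1.91 CPM, at 5.93 CPM and at 3.83 to 5.00 CPM in the order used for Gbp4. Cbln1, a synaptic organiser, lay at 4.06 and 8.74 CPM in MPTP+PF4 1 and 3, at 68.1 CPM in MPTP+PF4 2 and at 18.0 to 51.5 CPM in MPTP. Serpina3n, an acute-phase protease inhibitor of astrocytes, was not among the 24, and lay at 9.10 and 7.87 CPM in MPTP+PF4 1 and 3, at 78.6 CPM in MPTP+PF4 2 and at 23.3 to 29.9 CPM in MPTP. The interferon response list had a median of 0.10 with all libraries and −0.52 without MPTP+PF4 2, and no member lay outside the MPTP range; Ifit3, an interferon-induced antiviral gene, lay at 10.5, 28.0 and 8.47 CPM in MPTP+PF4 1 to 3 and at 9.92 to 10.7 CPM in MPTP.

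**Figure D5:**
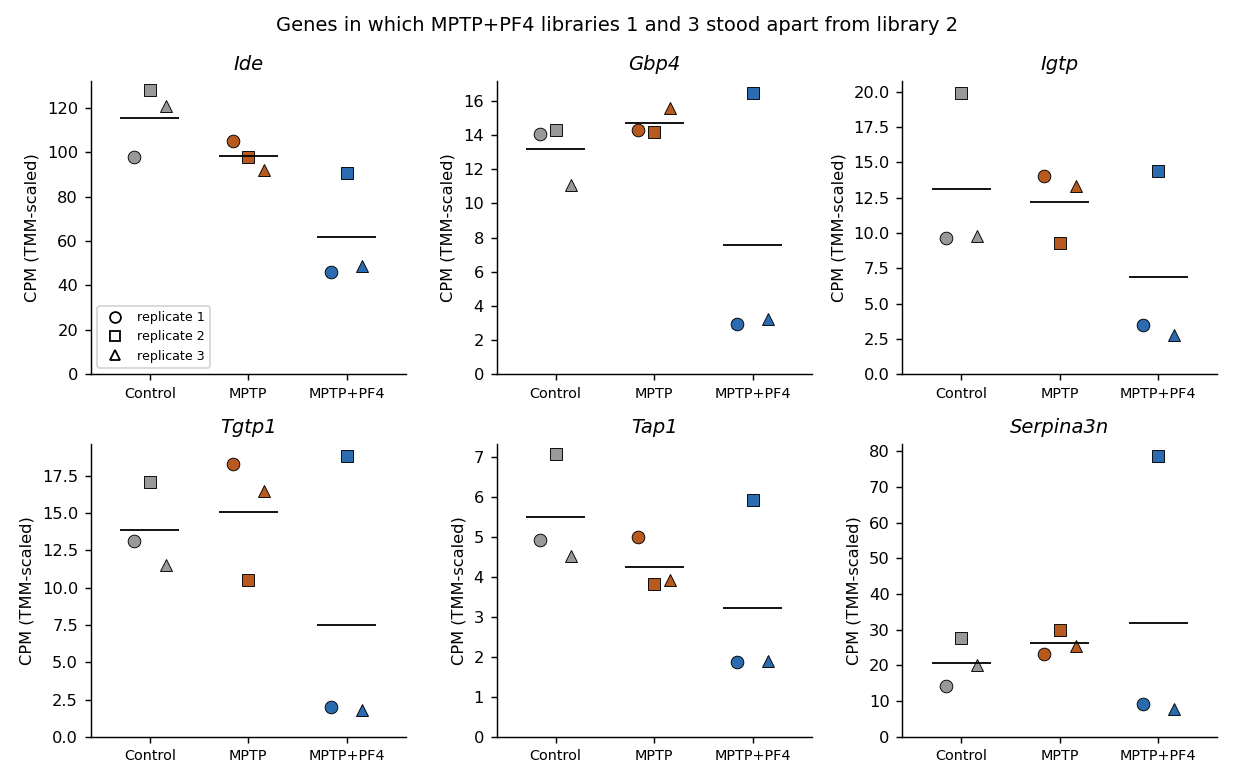
Level in CPM (TMM-scaled, linear axis from 0) of 6 genes in each control, MPTP and MPTP+PF4 library; symbols mark the replicate number and horizontal lines the mean of 3 libraries. MPTP+PF4 1 and 3 lie below all other libraries in each panel, for example at 2.95 and 3.25 CPM of Gbp4 against 16.5 CPM in MPTP+PF4 2.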

How the data were processed

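RNA labelled as midbrain, from 9 mice, was sequenced as mRNA libraries from 1 µg of total RNA, per the labels' protocols; the sources used here do not give the aligner, counting program or strand setting, and the submitters' processing notes name the mm9 build. The authors deposited whole-number read counts and FPKM values per gene for every library, and words for their own calls, per the file headers. Of 29001 lines, 10 had no values, leaving 28991 genes, of which 6955 are loci without a known gene with 0.996% to 1.23% of the counts in the 6 libraries. Positions come from GENCODE M21 (GRCm38), matched by identifier and never converted.

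For the counts, the robust quasi-likelihood test of edgeR 4.0.16 (R 4.3.3) was used, with TMM factors and filterByExpr, in 1 fit of 9 libraries on the group, taking MPTP+PF4 minus MPTP, with Benjamini-Hochberg adjustment over 17285 genes and a threshold of 0.05. The common biological coefficient of variation was 0.394. FPKM values served only to compare levels between genes, as deposited by the authors. Alternatives were DESeq2 1.42.0, voom in limma 3.58.1, other size factors, no filter, the 6 libraries alone, the replicate number as a block (also in DESeq2 and voom) and leaving out each library. The procedure was tested on simulated data. Intervals and floors cover counting error only.

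The deviations of same-numbered MPTP and MPTP+PF4 libraries from their group means correlated at 0.124, 0.605 and 0.524, although MPTP+PF4 1 correlated more with MPTP 3 (0.422). The numbers were therefore treated as a possible pairing and entered as a block in alternative fits only. The main fit and the exact permutation test did not use it. The pairing rests on these values, since no label gives a shared litter, batch or day. The comparison, its members and the gene lists were chosen with earlier results of these data known. Genes named are the markers given for the comparison, the 12 higher and 12 lower genes with the smallest p and groups that do not overlap, the DESeq2 calls, up to 4 members of each list by p, and further list members for their role; the genes in which MPTP+PF4 1 and 3 stood apart, and the globin and peptide genes, were chosen after their values were seen. Some list members are not reported here.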

Additional observations from a re-analysis of the deposited data

How the results depend on the processing

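In edgeR the count of genes past an adjusted p of 0.05 was 0 under other size factors, without the filter, with the 6 libraries alone and without any 1 library, with 198 to 521 genes at an unadjusted p under 0.05 when 1 was left out (smallest adjusted p 0.162, without MPTP+PF4 2); DESeq2 called 16 and voom 13. With the replicate number as a block edgeR also called 0 (340 at an unadjusted p under 0.05), DESeq2 20 and voom 5. DESeq2 called 35 without MPTP+PF4 2 and 6 without MPTP 1; these blocked and reduced DESeq2 and voom fits were chosen after seeing the data. In the blocked edgeR fit the choroid plexus median was −1.11 and the ependymal median −1.55, and the log2 fold changes of Adora2a, Drd1 and Pf4 reversed to −1.17, −0.58 and −0.04. By voom the medians were −1.22 for dynein arms, −1.52 for radial spokes, −1.28 for ciliogenesis regulators, −2.41 for ependymal and 0.16 for dopaminergic genes, and Th, Drd1, Adora2a and Pf4 reversed to −0.24, −0.02, −0.01 and −0.42; the cause was not tested.

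Leaving out 1 library in turn gave medians of −1.11 to −0.77 for dynein arms, −1.16 to −0.37 for ciliogenesis regulators, −2.25 to −1.42 for ependymal, −3.01 to 0.04 for choroid plexus and −0.82 to 1.60 for dopaminergic genes. Log2 fold changes then ran from −0.82 to 1.60 for Th, −0.05 to 8.54 for Slc6a3, −0.65 to 0.96 for Drd1, −0.49 to 0.97 for Adora2a, −4.73 to 0.36 for Ttr and −0.81 to 0.80 for Pf4. Those of Il33, Dnah10, Lrrc23 and Zic1 ran from 0.76 to 0.93, −2.79 to −2.24, −2.66 to −1.91 and −2.39 to −1.79. The groups of these genes did not overlap, so a reversal on leaving out 1 library was not to be looked for. With the 6 libraries alone and MPTP+PF4 2 left out, Th was −0.85, Slc6a3 −0.06 and Pf4 −0.83, and the regulator and dopaminergic medians were −1.18 and −0.31. Genes whose groups did not overlap numbered 2125 to 3743 without 1 library, since 2 libraries then stood against 3. Of 976 log2 fold changes of 61 genes under 16 alternatives, 956 kept their direction. The 61 include genes chosen because their groups did not overlap. Genes near the floor, such as Il1rl1, Cxcr3 and Tnf, were limited by depth.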
